A study of Mus musculus with 12 samples.

Results

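Dynlt3 encodes a light chain of the dynein motor and lies on the mouse X chromosome. The set described here holds the single-base variants with a coverage of at least 20 reads that the deposited variant tables assign to Dynlt3, in all 12 libraries. It comprised 30 sites of 6478 single-base sites in the series that had at least 20 reads in some library. The gene was chosen by its reference shares, per site and summed per library along the courses, in these same libraries. Its shares are therefore given as a description, with intervals for counting error and no test.

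The study sequenced polyadenylated RNA from embryonic fibroblasts of the mouse (MEF) and from cells in reprogramming by SeVdp(fKOSMaB), a Sendai virus vector, and listed X-linked variants allele by allele. The MidK1 course carried the vector with 30 nM Shield1, a small molecule that protects proteins carrying a destabilising domain from degradation, and was sampled at days 35, 52 and 56. The MidK2 course had the same vector and the same 30 nM Shield1 at days 18, 22, 29 and 36. The LowK course had the vector and no Shield1 at days 35, 52 and 56, and the references were MEF1 and MEF2 at day 0, without vector or agent. Each course and day is 1 library, so a difference between courses or days cannot be told apart from the spread between cultures. The sources used here do not give the mouse strains, the origin of each X chromosome, or whether the MEF libraries came from different cultures.

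Cytoplasmic dynein is the motor that carries cargo towards the minus ends of microtubules, and Tctex-type light chains such as Dynlt3 sit on its intermediate chains. In human cells DYNLT3 is known to bind the spindle checkpoint protein BUB3, and in pigment cells it is known for its part in melanosome movement. In female mammalian cells 1 X chromosome is silenced, and return of both alleles of X-linked genes is a known feature of reprogramming to pluripotency. The reference share is the percentage of reads at variant sites that do not carry the variant allele.

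Dynlt3 spans chrX:9654267-9663003 of build mm10 on the minus strand, with 5 exons and a transcript of 2176 bases in the annotation. Of the 30 sites, 29 lay in the 3′ UTR of 1723 bases (chrX:9654267-9655989) and 1, at 9657111, in the coding sequence of 348 bases. The coding site is base 3 of codon 42 and leaves the encoded residue the same. The list was uneven between libraries: 18 sites, called common sites below, were listed in all 12 libraries with at least 20 reads, and 17 of these were in the 3′ UTR. Of the other 12 sites, 6 were listed with at least 20 reads in 1 library, and 1 site each in 2, 3, 5, 9, 10 and 11 libraries.

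The 6 common sites with the highest summed coverage are shown because no other Dynlt3 site had more reads over the 12 libraries. Each window of 21 bases is reference transcript sequence of build mm10, read 5′ to 3′ on the minus strand. The capital is the reference base of the site at position 11 of the window, counted from 1 at the 5′ end, and the substitution gives the reference base first.
Site 9655084, chrX:9655074-9655094, T11C: aagagtctggTcctccgtgga
Site 9655004, chrX:9654994-9655014, G11C: ttgcttcccaGaaagtaatac
Site 9654693, chrX:9654683-9654703, A11T: actcgatttcAcatcttacca
Site 9654711, chrX:9654701-9654721, C11G: atttaaccttCaaaatgaact
Site 9654484, chrX:9654474-9654494, G11A: gctttggcacGtccagagttc
Site 9654761, chrX:9654751-9654771, C11A: aataaatattCggatacacag

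A pair of 3′ UTR sites outside the common set is shown because they behaved otherwise. Site 9655269 was listed in 9 reprogrammed libraries and in neither MEF library, and site 9655418 lies in a run of T beside listed insertions.
Site 9655269, chrX:9655259-9655279, G11A: ttccatgagaGatgggcaggt
Site 9655418, chrX:9655408-9655428, G11A: ttttttttttGtttgttttaa

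At the 18 common sites Dynlt3 was read mainly from the variant allele in MEF and from both alleles in MidK1, late LowK and late MidK2 libraries. For MidK1, day 35 had a reference share of 63.4% (95% Wilson interval 61.3 to 65.4, 2170 reads), day 52 had 64.1% (61.7 to 66.6, 1467 reads) and day 56 had 61.5% (59.1 to 63.8, 1645 reads). For LowK, day 35 had 5.65% (4.43 to 7.20, 1079 reads), day 52 had 23.6% (20.7 to 26.8, 746 reads) and day 56 had 36.4% (33.6 to 39.3, 1110 reads). MEF1, their reference, had 6.41% (5.05 to 8.11, 998 reads). The 3 MidK1 libraries lay close together, whereas the LowK libraries stood apart from each other, the first of them at the level of MEF1.

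In MidK2, which was sampled earlier, day 18 had 18.3% at the common sites (15.9 to 20.9, 919 reads), day 22 had 41.4% (38.5 to 44.3, 1114 reads), day 29 had 53.6% (50.8 to 56.4, 1207 reads) and day 36 had 51.6% (49.4 to 53.8, 2021 reads). MEF2 had 2.28% (1.62 to 3.20, 1402 reads). The last 2 MidK2 days overlapped in their intervals and the first 2 did not. There were no molecular identifiers, and 1 read can span several sites, so these intervals cover counting error only.

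**Figure D1:**
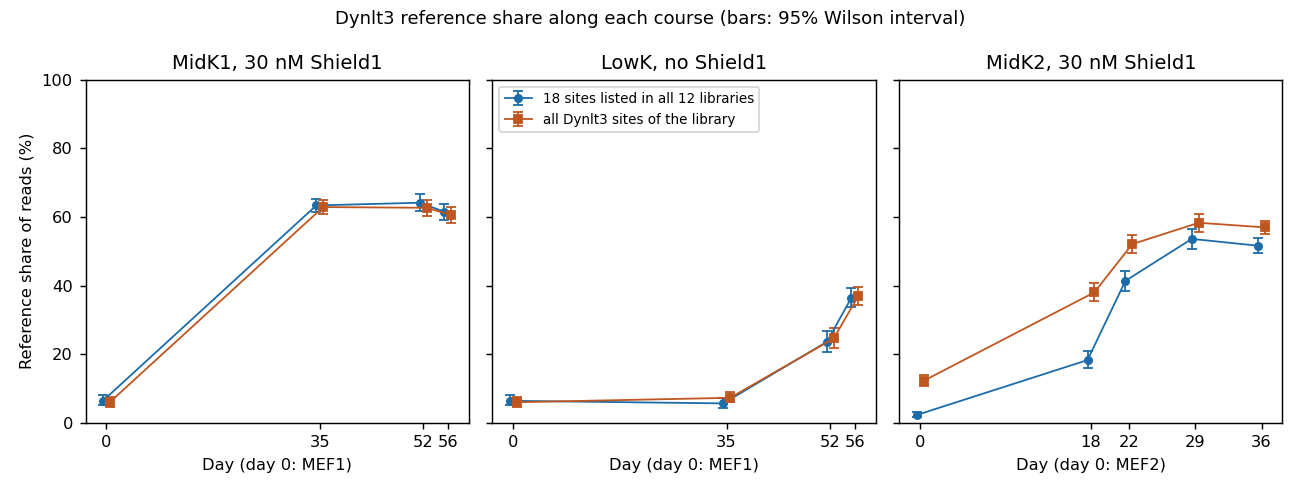
Reference share of Dynlt3 reads (%) against day for MidK1, LowK and MidK2, each with its MEF library at day 0. Circles are the 18 common sites, squares all Dynlt3 sites of the library, lines join days and bars are 95% Wilson intervals. MidK1 stays between 60.5 and 64.1% from day 35, LowK reaches 36.4% at day 56, and in MidK2 and MEF2 the squares lie above the circles.

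Summed over all sites of a library, MidK1 had 62.9%, 62.7% and 60.5% at days 35, 52 and 56 and LowK 7.28%, 24.6% and 36.9%, against 5.99% in MEF1. MidK2 had 38.0%, 52.1%, 58.3% and 57.0% at days 18, 22, 29 and 36, against 12.2% in MEF2. For the first 7 libraries this differed by at most a few points from the common sites. For MidK2 and MEF2 it was higher in 5 of 5 libraries, by the largest margin at day 18. In those libraries 5 or 6 sites lay outside the common set, and the reference share over them in MidK2 was 87.0% (day 18, 370 reads), 86.5% (day 22, 347 reads), 80.5% (day 29, 256 reads) and 78.6% (day 36, 500 reads), against 57.7% of 307 reads in MEF2. The common sites are the same in each library.

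The sites outside the common set fell into a few kinds. The 7 sites listed in 1 or 2 libraries had reference shares of 90.9 to 94.7% and were listed in MidK2 or MEF2, whose tables list variants down to 5% of reads. Sites 9655418 and 9655421, beside the insertions in the run of T, had 80.6 to 94.4%. Sites 9655757 and 9655916 had at least 20 reads in 10 and 11 libraries. In the remaining MidK2 libraries they were listed with 18 or 19 reads. Site 9655757 had 57.9, 43.6 and 64.7% in MidK1 and 0, 5 and 34.8% in LowK, against 3.45% in MEF1. At day 52 these values lay below the lowest common site, which had 48.6% in MidK1 and 11.5% in LowK. The average base quality, given for the MEF1, LowK and MidK1 libraries, was 33.4 to 35.7 at the common sites and 33.5 to 35.7 at the others listed there. These others were sites 9655269, 9655757 and 9655916 and, in LowK at day 35 alone, site 9655418. Sites listed only in MidK2 or MEF2 have no quality value.

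Site 9655269 ran opposite to the common sites. Its variant share, not its reference share, was 48.3% of 60 reads, 55.8% of 52 and 60.0% of 50 in MidK1 at days 35, 52 and 56. In LowK it was 23.1% of 26 reads at day 52 and 28.6% of 28 at day 56, and the site was not listed at day 35 or in MEF1. In MidK2 it was 7.69% of 52 reads, 16.7% of 48, 35.2% of 71 and 38.9% of 113 at days 18, 22, 29 and 36, and it was not listed in MEF2. Within LowK the order of the days was that of the reference share at the common sites. In MidK1 and MidK2 the last day had the highest variant share here, while day 52 and day 29 had the highest reference share at the common sites. The phase of the alleles is not in the tables.

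**Figure D2:**
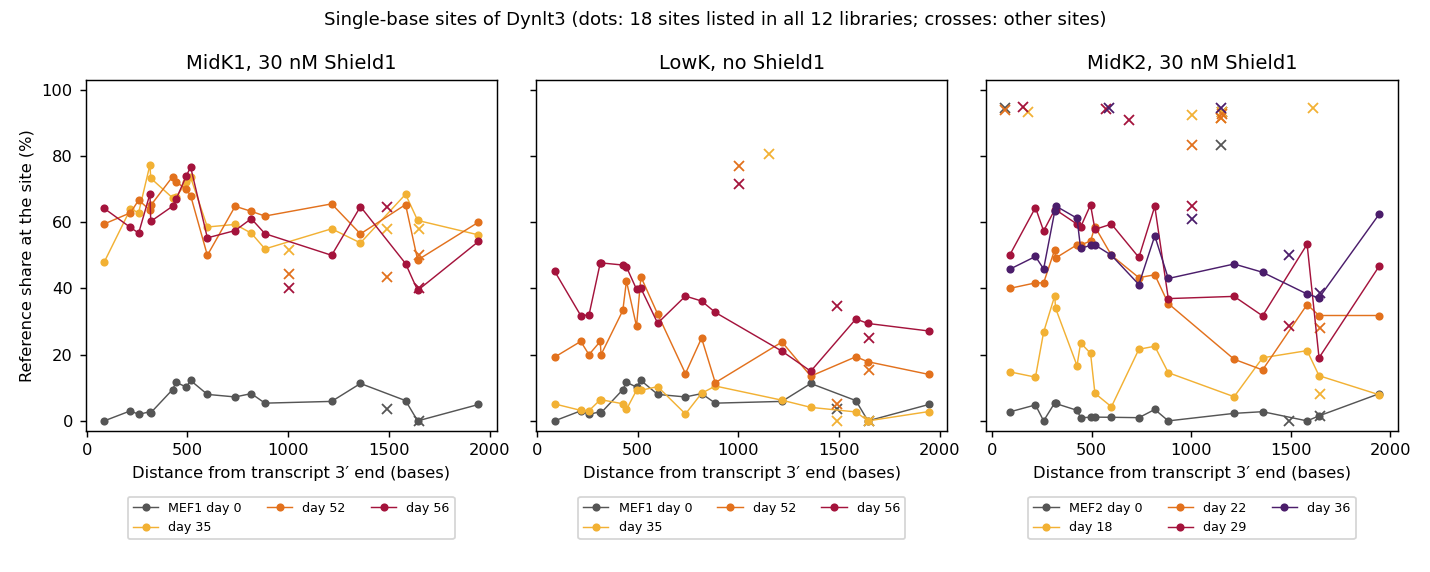
Reference share (%) at each Dynlt3 site against its distance in bases from the 3′ end of the transcript, for MidK1, LowK and MidK2 with their MEF library. Joined dots are the 18 common sites and crosses the other sites, 1 colour per library. MEF dots lie at 0 to 12.2%, MidK1 dots at 39.4 to 77.3%, and most crosses above 90% belong to MidK2 and MEF2.

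Single sites gave the same picture with more scatter. Site 9655084, which had 1433 reads over the 12 libraries, had reference shares of 56.7, 63.3 and 61.0% in MidK1 at days 35, 52 and 56 and 8.33, 25 and 36.2% in LowK, against 8.24% in MEF1. In MidK2 it had 22.5, 44.1, 64.8 and 55.9% at days 18, 22, 29 and 36, against 3.45% in MEF2. The coding site 9657111 had 56.2, 60.0 and 54.2% in MidK1 and 2.82, 14.0 and 27.1% in LowK, against 4.95% in MEF1. In MidK2 the coding site had 7.89, 31.8, 46.7 and 62.4%, against 8.20% in MEF2, so at day 18 it was slightly below MEF2. It was highest at day 36, whereas the common sites together had 53.6% at day 29 and 51.6% at day 36.

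Over the common sites the spread was wide. At day 56 the sites ran from 39.4 to 76.6% (median 59.3%) in MidK1 and from 15.0 to 47.7% (median 34.5%) in LowK, against 0 to 12.2% (median 6%) in MEF1. At day 36 they ran from 37.1 to 64.9% (median 49.8%) in MidK2, against 0 to 8.20% (median 1.89%) in MEF2. None of these ranges of a reprogrammed library at its last day overlapped that of its MEF library. At day 35 LowK sites ran from 0 to 10.5% and lay within the range of MEF1.

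Differences were taken at the sites that both libraries of a pair list, and rank is counted from the largest positive difference among the genes compared. For MidK1 the excess over MEF1 was 57.2 points on day 35 (95% Newcombe interval 54.6 to 59.5), 57.3 on day 52 (54.4 to 60.0) and 55.2 on day 56 (52.4 to 57.8). Dynlt3 ranked 3 of 153, 4 of 155 and 6 of 156 genes at these days, and the median difference of all genes was 0.99, 0.62 and 3.88 points. At all 3 days 18 of 18 common sites were higher in MidK1 than in MEF1. Among all genes, 8.5%, 12.9% and 14.1% were called higher at those days, where a call needs an adjusted p under 0.05 (Fisher's exact test on summed reads, two-sided, Benjamini-Hochberg) and at least 20 points.

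LowK minus MEF1 was -0.68 points on day 35 (-2.62 to 1.23), 16.9 on day 52 (13.7 to 20.2) and 30.1 on day 56 (26.9 to 33.1). The interval at day 35 included 0, and Dynlt3 ranked 78 of 163 genes there. It ranked 5 of 170 on day 52 and 4 of 163 on day 56. Common sites higher in LowK than in MEF1 numbered 9, 18 and 18 of 18 at days 35, 52 and 56, with 8 lower at day 35. Of all genes 1.23%, 1.76% and 4.91% were called higher at these days.

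MidK2 minus MEF2 was 18.5 points on day 18 (15.7 to 21.4), 38.6 on day 22 (35.6 to 41.6), 51.0 on day 29 (48.0 to 53.8) and 49.1 on day 36 (46.7 to 51.4). Dynlt3 ranked 4 of 189, 6 of 187, 5 of 181 and 4 of 192 genes, and 1.59%, 9.63%, 9.94% and 10.4% of genes were called higher, with 0.529% called lower on day 18. Common sites higher in MidK2 than in MEF2 numbered 17, 18, 18 and 18 of 18. MEF2 minus MEF1 was -3.81 points (-5.49 to -2.28), with 6 common sites higher and 12 lower in MEF2, and 0.0% of 174 genes were called in either direction. At shared sites MEF2 was thus lower than MEF1, by less than LowK at day 52 was higher, whereas over all sites of each library MEF2 had 12.2% and MEF1 5.99%.

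The comparison of Shield1 with no Shield1 at matched days was MidK1 against LowK. The excess of MidK1 over LowK was 57.9 points on day 35 (55.4 to 60.2), 38.1 on day 52 (34.2 to 41.8) and 23.7 on day 56 (20.1 to 27.2). Common sites higher in MidK1 numbered 18 of 18 at each of these days, and the ranks were 2 of 235, 10 of 244 and 19 of 243 genes. Over the same days 7.23%, 8.61% and 8.64% of genes were called higher in MidK1, and 0.426% lower on day 35. Over these days LowK differed by 17.5 points (14.4 to 20.8) between days 52 and 35 and by 12.3 (8.23 to 16.3) between days 56 and 52, with 18 and 15 of 18 common sites higher on the later day. MidK1 differed by -0.21 (-3.30 to 2.87) and -2.13 points (-5.41 to 1.17) over the same steps, and both intervals included 0. Within these courses 1.23% and 0.395% of genes were called higher on the later day in LowK, and 2.56% and 0.424% in MidK1.

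Within MidK2 the steps were 17.6 points (13.8 to 21.3) for day 22 minus day 18, 11.1 (7.15 to 15.0) for day 29 minus day 22 and -1.74 (-5.16 to 1.69) for day 36 minus day 29. At the common sites the first step was 23.1 points (19.2 to 26.9), larger than over all shared sites. On the later day 17, 16 and 7 of 18 common sites were higher, where 2.11%, 0.357% and 0.345% of all genes were called higher and 0.351%, 0.357% and 1.03% lower. The nearest days of the Shield1 courses were set side by side although they differ: MidK2 at day 36 minus MidK1 at day 35 was -11.1 points (-13.9 to -8.18), 17 of 18 common sites were lower in MidK2, and 1.22% of genes were called lower and 1.22% higher. These courses belong to tables made with different limits.

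The reference share also varied along the transcript. The 13 common sites nearer the 3′ end than site 9655269 had 47.6% in MidK2 at day 22, against 23.2% at the 5 sites farther from it, a gap of 24.4 points (18.1 to 30.0). On the other days of MidK2 the gap was 8.23 points (day 18, 2.62 to 13.02), 19.4 (day 29, 12.9 to 25.7) and 4.14 (day 36, -0.94 to 9.20), against -0.82 (-3.27 to 0.87) in MEF2. In MidK1 it was 5.80 (0.23 to 11.5), 5.98 (-0.38 to 12.5) and 11.4 points (4.69 to 18.1) at days 35, 52 and 56. In LowK it was 3.01 (-0.41 to 5.47), 9.03 (1.92 to 15.1) and 14.6 points (7.60 to 20.9), against 0.84 (-2.84 to 3.83) in MEF1. The nearer sites thus had the higher share in 10 of 10 reprogrammed libraries, with intervals above 0 in 7. The split was chosen after the values were seen and has no test.

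Depth along the transcript differed between the sets of tables. Site 9655483, the first of the farther sites, had 21 to 50 reads in MEF1, LowK and MidK1 and 88 to 228 in MEF2 and MidK2. Sites 9655418 and 9655421 with the insertions beside them lie on 1 side of it and an insertion of 3 bases after 9655542 on the other. In MidK2 at day 22 it supplied 129 of the 284 reads of the farther sites, with a reference share of 18.6%, and the others of them had 15.4, 35.1, 31.8 and 31.8%. The part of the depth or of the insertions in the gap was not tested.

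**Figure D3:**
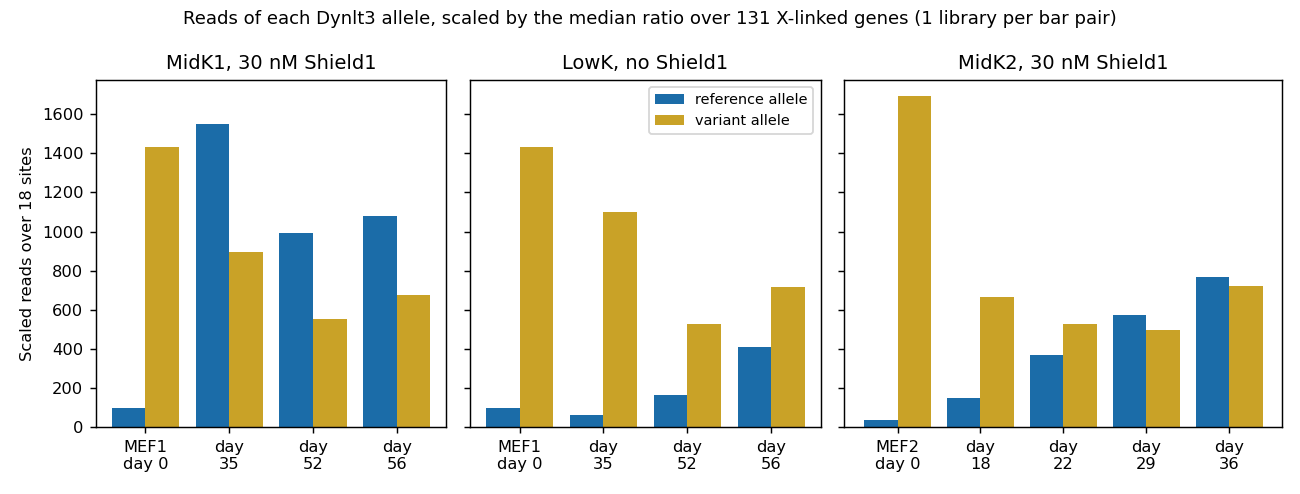
Reads of each Dynlt3 allele summed over the 18 common sites and scaled by the median ratio over 131 X-linked genes, 1 library per pair of bars, for MidK1, LowK and MidK2 with their MEF library at day 0. Reference reads are the left bar and variant reads the right bar of a pair. Variant reads are 497 to 1098 in reprogrammed libraries against 1433 and 1691 in MEF, while reference reads range from 65.8 in LowK at day 35 to 1551 in MidK1 at day 35.

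The gene was chosen by the share of reads, and the number of the same reads was compared as well. The sum takes only sites with at least 20 reads in all 12 libraries, and it holds the reference reads that enter the share. Coverage is thus not independent of the choice of the gene, and the p-values for it are given as a description only. Scaled coverage over the 18 common sites was 2448, 1550 and 1752 reads in MidK1 at days 35, 52 and 56 and 1164, 693 and 1126 in LowK, against 1531 in MEF1. MidK2 had 816, 897, 1071 and 1487 reads at days 18, 22, 29 and 36, against 1730 in MEF2. Reprogrammed libraries averaged 1301 ± 526 (SD, n = 10) and MEF libraries 1630 ± 141 (SD, n = 2), a log2 difference of -0.42 (exact permutation test over 66 splits, two-sided, p = 0.364, adjusted p = 0.364 over 2 comparisons). Under scaling to total coverage this difference was 0.0049 (exact permutation p = 0.970), so the direction depends on the scaling. In bulk RNA, fewer expressing cells and less RNA per cell cannot be told apart.

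MidK1 averaged 1917 ± 471 scaled reads and LowK 994 ± 262 (SD, n = 3 each), and the libraries did not overlap. The log2 difference was 0.96 (exact permutation test over 20 splits, two-sided, p = 0.1, adjusted p = 0.2), and 0.1 is the smallest p that 3 against 3 can give. Paired by day, MidK1 was higher in 3 of 3 pairs (exact sign-flip permutation, p = 0.25, the smallest that 3 pairs can give). The days of a course are the units of these tests, not cultures, and the scaling is to other X-linked genes alone, since no autosomal values were used.

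Split by allele, the courses differed more in reference than in variant reads. Scaled reference reads were 1551, 994 and 1078 in MidK1 at days 35, 52 and 56 and 65.8, 163 and 410 in LowK, against 98.2 in MEF1. In MidK2 they were 149, 371, 574 and 768 at days 18, 22, 29 and 36, against 39.5 in MEF2. Scaled variant reads were 897, 556 and 674 in MidK1 and 1098, 529 and 716 in LowK, against 1433 in MEF1, and 667, 526, 497 and 720 in MidK2, against 1691 in MEF2. Variant reads were lower in each of the 10 reprogrammed libraries than in either MEF library, also under total scaling, where they were 520 to 1182 against 1234 in MEF1 and 1203 in MEF2. At day 35 of MidK1 the reference allele thus gave more scaled reads than the variant allele, whereas in LowK at day 56 it gave fewer.

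Fibroblast markers were lower in reprogrammed than in MEF libraries. Scaled coverage summed over the 6 of 8 X-linked fibroblast markers with common sites was 4410 to 6293 reads in the 10 reprogrammed libraries, against 28862 in MEF1 and 37009 in MEF2. Timp1, Tmsb4x, Flna, Msn and Lamp2 were each lower in 10 of 10 reprogrammed libraries than in either MEF library. Plp2 went the other way in 8 of 10, with 159 to 281 reads in MidK1 and 72.8 to 176 in MidK2, against 42.9 in MEF1 and 44.4 in MEF2. The lowest sum was that of LowK at day 35, whose Dynlt3 reference share was at the level of MEF1. Of 5 genes listed for pluripotent or germline expression, Rhox5, Esx1 and Zfx had listed sites in all 10 reprogrammed libraries and in neither MEF library, Tfe3 in all 12 and Nr0b1 in none. Tfe3 had 850 scaled reads in MEF1 and 1111 in MEF2, against 1259 to 2664 in reprogrammed libraries, so it was not limited to reprogrammed cells. A gene without a listed variant is not seen, so an absence here says nothing of its expression. The part of the change of cell type in the Dynlt3 values was not tested.

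Among the genes of each library, the Dynlt3 share ranked higher in most reprogrammed libraries than in fibroblasts. Over the 131 genes with common sites it ranked 3, 3 and 5 from the highest in MidK1 at days 35, 52 and 56, and 28, 13 and 8 in LowK, against 26 in MEF1. In MidK2 it ranked 12, 9, 2 and 3 at days 18, 22, 29 and 36, against 36 in MEF2. The median gene had 4.45, 4.99 and 9.06% in MidK1 and 2.54, 2.78 and 5.49% in LowK, against 3.66% in MEF1. In MidK2 the median gene had 4.35, 10.5, 8.77 and 2.30%, against 1.20% in MEF2.

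The 5 genes whose share over all sites was closest to that of Dynlt3, by mean absolute difference over the 12 libraries among 121 genes with at least 40 reads in each, were Zdhhc9, 1810030O07Rik, Utp14a, Fundc1 and Gpkow. Zdhhc9, which encodes a palmitoyltransferase, differed by 7.73 points on average (Pearson r = 0.93 over the 12 libraries). 1810030O07Rik differed by 9.80 points, Utp14a, a ribosome biogenesis gene, by 11.9, Fundc1, a mitophagy receptor gene, by 13.9, and Gpkow, which encodes a spliceosome component, by 15.8. The median over the 120 genes compared was 32.2 points. Zdhhc9 had 53.1, 52.6 and 46.8% in MidK1 at days 35, 52 and 56 and 11.8, 23.3 and 19.7% in LowK, against 5.39% in MEF1. In fibroblasts some of these genes had higher shares than Dynlt3 over all sites. Utp14a had 31.3% in MEF1 and 34.0% in MEF2, and in MEF2 Fundc1 had 44.7% and Zdhhc9 26.7%. At common sites in MEF2 Utp14a had 34.3%, whereas Fundc1 had 0% and Zdhhc9 2.08%, against 2.28% for Dynlt3. At common sites alone, among 106 genes, the closest were Fundc1 (9.97 points), Zdhhc9 (10.9), Gpkow (11.5), Timp1 (11.7) and Utp14a (14.4), so 4 of the 5 genes were shared by both orders. Libraries of a course share cells and table limits, so the likeness is a description.

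**Figure D4:**
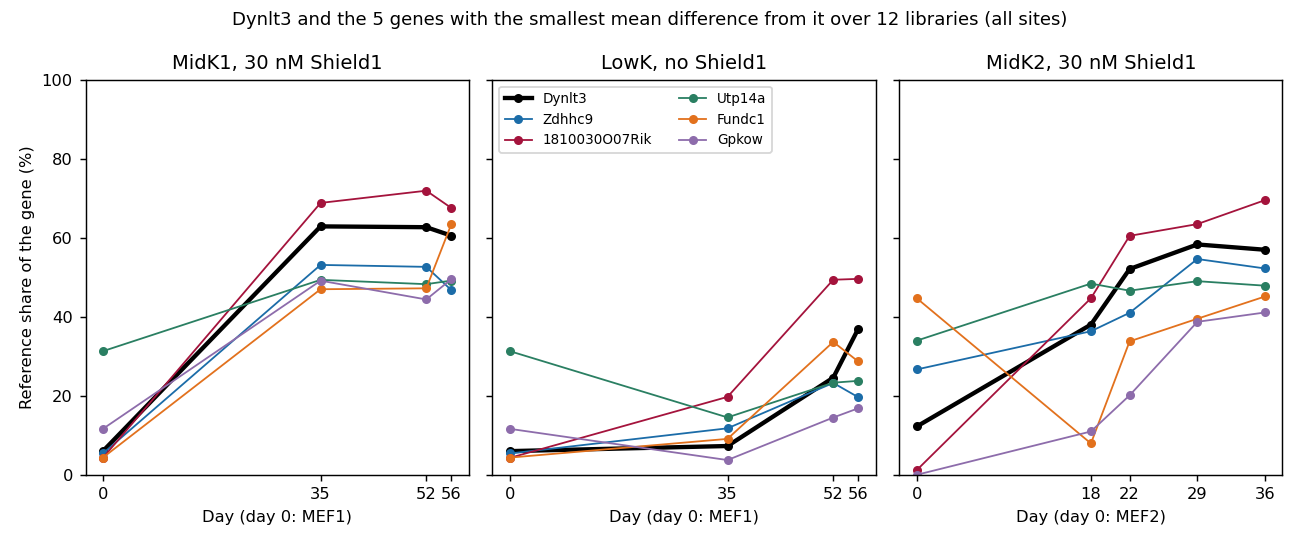
Reference share over all sites (%) against day for Dynlt3 (thick black line) and the 5 genes closest to it, in MidK1, LowK and MidK2 with their MEF library at day 0. Lines join libraries of a course. Dynlt3 lies above Zdhhc9, Utp14a and Gpkow in MidK1 and below 1810030O07Rik in the 3 courses from day 18 or 35 on.

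Dynlt3 lies in a stretch with few measured neighbours. Within 5 Mb, 34 other genes were measured in at least 8 libraries, and the nearest on the left, Ftsj1, a tRNA methyltransferase gene, was 1.41 Mb away, ahead of Porcn, which acts on Wnt proteins, and Ebp, a sterol isomerase gene. On the right the nearest were Rpgr, a gene of the photoreceptor cilium, at 0.49 Mb, Tspan7, a tetraspanin gene, at 0.88 Mb and Mid1ip1 at 1.06 Mb. At day 56 of MidK1 Dynlt3 had 60.5%, against 40.6% for Ftsj1, 42.0% for Porcn, 19.8% for Ebp, 1.24% for Rpgr, 15.2% for Tspan7 and 8.93% for Mid1ip1. At day 56 of LowK these 6 genes had 10.6, 34.8, 9.76, 0, 5.21 and 1.82%, against 36.9% for Dynlt3. Where both X chromosomes carry the variant, a low share says nothing of the silent allele, and such sites cannot be told apart here.

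Over the wider neighbourhood Dynlt3 was near the top. In MidK1 at day 56 the 34 neighbours ran from 0 to 80.5% (median 28.9%) and 2 were above Dynlt3, against a median of 7.89% for the 235 genes farther away. In LowK at day 56 the 33 neighbours measured had a median of 10.2% and 2 were above Dynlt3, against 4.55% for 246 genes farther away. In MidK2 at day 36 the median was 21.6% over 33 neighbours with 3 above Dynlt3, against 8.14% over 305 genes farther away. In MEF1 7 of 23 neighbours and in MEF2 9 of 26 were above Dynlt3, Ddx3x, an RNA helicase gene that escapes X inactivation, among them with 42.8 and 44.5%. These neighbour counts and medians use shares over all sites. At common sites in MEF2 Dynlt3 had 2.28% instead of 12.2%. Of the nearest genes with common sites, Ebp had 4.76% there instead of 20.2% and Ftsj1 0% instead of 15.8%. Tspan7 had 0.25% instead of 17.4% and Mid1ip1 0.61% instead of 0.68%.

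Neighbours called higher than in MEF1 numbered 7 of 22, 10 of 21 and 13 of 22 in MidK1 at days 35, 52 and 56, beside 8.5%, 12.9% and 14.1% of all genes. In LowK they numbered 0, 1 and 3 of 22, beside 1.23%, 1.76% and 4.91%. In MidK2 against MEF2 they numbered 1 of 24, 3 of 24, 8 of 23 and 10 of 25 at days 18, 22, 29 and 36, beside 1.59%, 9.63%, 9.94% and 10.4%. None of the neighbours was called lower in these comparisons. The neighbours called in MidK1 at each of the 3 days were 1810030O07Rik, Gpkow, Hdac6, Plp2, Tfe3 and Wdr13. Whether the neighbours differ from genes elsewhere was not tested.

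**Figure D5:**
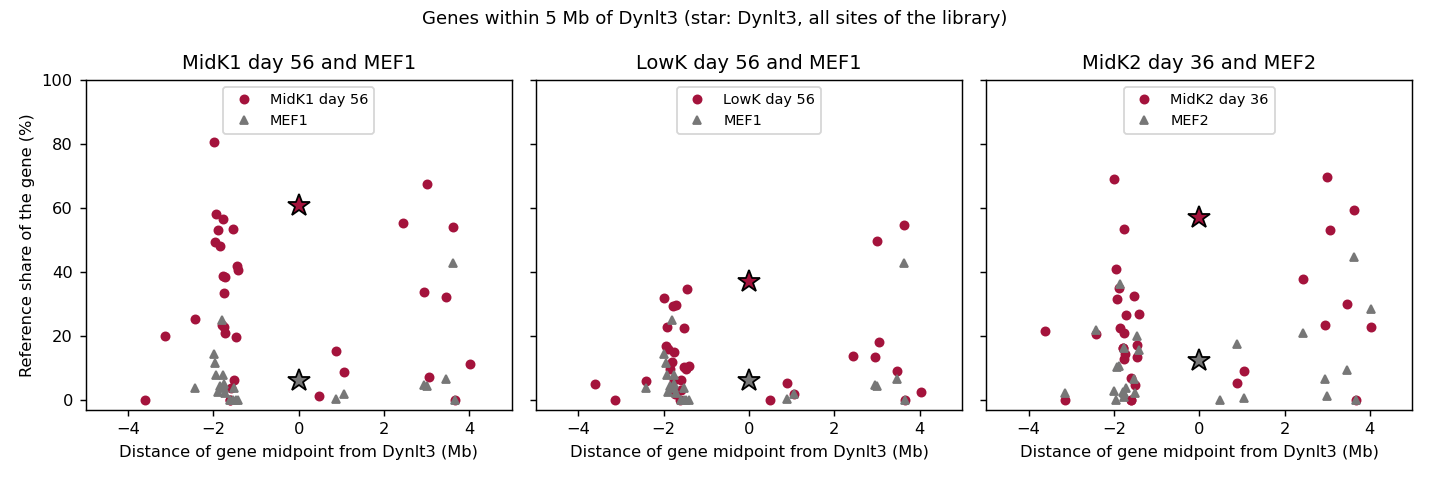
Reference share over all sites (%) of genes within 5 Mb of Dynlt3 against the distance of their midpoint from that of Dynlt3 (Mb), in MidK1 at day 56, LowK at day 56 and MidK2 at day 36 (circles) and their MEF library (triangles). Stars mark Dynlt3. No other gene measured in at least 8 libraries lies between -1.41 and 0.49 Mb. Dynlt3 is below 2 circles in MidK1, 2 in LowK and 3 in MidK2.

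Other X-linked genes of microtubules, motors, spindle and centrosome were mostly not called. Of the 20 genes of that list 17 were measured in some library. Hdac6, the tubulin deacetylase gene, was the only one called higher than MEF1: it was 1 of 6, 1 of 7 and 1 of 6 tested in MidK1 at days 35, 52 and 56, and 0 of 6, 0 of 7 and 1 of 6 in LowK. Against MEF2 it was 0, 0, 1 and 1 of 7 in MidK2 at days 18, 22, 29 and 36. Over all genes 8.5%, 12.9% and 14.1% were called higher in MidK1, 1.23%, 1.76% and 4.91% in LowK and 1.59%, 9.63%, 9.94% and 10.4% in MidK2, and with 6 or 7 genes tested 1 call is not set apart from these shares. Hdac6 had 28.5, 32.1 and 38.5% in MidK1 and 4.86, 18.4 and 29.7% in LowK, against 2.17% in MEF1. Hdac6 and Mid1ip1 of this list are also neighbours within 5 Mb of Dynlt3. The median difference of the list in MidK1 minus MEF1 was -0.02, 0.00 and 2.41 points, beside 0.99, 0.62 and 3.88 for all genes. Between MidK1 and LowK the calls were Hdac6 at day 35 (1 of 13 tested) and Klhl13, a cullin adaptor gene with a role in mitosis, with the septin gene Sept6 at days 52 (2 of 14) and 56 (2 of 13), beside 7.23%, 8.61% and 8.64% of all genes.

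Of the 20 vesicle and membrane traffic genes 15 were measured. Called higher than MEF1 were 1 of 11, 3 of 10 and 4 of 10 in MidK1 at days 35, 52 and 56 and 0 of 10 at each day of LowK, and higher than MEF2 were 0 of 12, 1 of 11, 1 of 11 and 2 of 12 in MidK2 at days 18, 22, 29 and 36. Beside them stand 8.5%, 12.9% and 14.1% of all genes in MidK1, 1.23%, 1.76% and 4.91% in LowK and 1.59%, 9.63%, 9.94% and 10.4% in MidK2, and counts such as 1 of 11 are near these shares. Plp2, which encodes a proteolipid of the endoplasmic reticulum, was called at each day that had a call. Praf2 joined it in MidK1 at days 52 and 56 and in MidK2 at day 36, the lysosomal gene Lamp2 in MidK1 at days 52 and 56, and the proton pump gene Atp6ap2 in MidK1 at day 56. Plp2, Praf2 and Atp6ap2 are also neighbours within 5 Mb of Dynlt3 and were counted among the called neighbours. Apart from Lamp2, the called genes of this list are thus called neighbours too, whereas most called neighbours are not on this list. Plp2 had 72.7, 85.0 and 80.5% in MidK1 and 11.4, 32.7 and 31.9% in LowK, against 14.3% of 28 reads in MEF1, and so exceeded Dynlt3 in MidK1. The median difference of the traffic list in MidK1 minus MEF1 was 2.58, 4.44 and 13.6 points, beside 0.99, 0.62 and 3.88 for all genes.

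The escape genes gave a further yardstick. Ddx3x had 51.9, 55.4 and 54.1% in MidK1 at days 35, 52 and 56 and 45.7, 49.9 and 54.6% in LowK, against 42.8% in MEF1, so that Dynlt3 exceeded it in MidK1 and stayed below it in LowK. Ddx3x, Kdm5c, a histone demethylase gene, and Eif2s3x, a translation initiation factor gene, were called in none of the 10 comparisons with MEF. Xist, the RNA that coats the silent X chromosome, had sites in 9 libraries. It shared a site with MEF in 2 of the 10 comparisons, LowK at day 52 and MidK2 at day 18, and was called in neither.

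The coverage minimum left out 3 site values, which had 18 reads (27.8%), 19 (21.1%) and 19 (31.6%), in MidK2 at days 22, 18 and 29. The 8 values just inside, with 20 to 22 reads, ran from 5% (site 9655757 in LowK at day 52) to 90.9% (site 9654953 in MidK2 at day 29). In all, 262 site values passed the minimum. Per library, 1507 to 3871 single-base sites passed the minimum, spread over 193 to 339 genes, with a total coverage of 138579 to 279031 reads and a median of 35 to 39 reads per site.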

How the data were processed

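X-linked variant tables of 12 libraries were used. Per the labels' protocols, libraries were made from 500 ng of total RNA, selected for poly(A), with a directional kit and sequenced as read pairs of 76 bases. The authors called variants in CLC Genomics Workbench (Basic Variant Call), per the series description, and the submitters' processing notes name build mm10. The sources used here name no aligner, read filter or caller setting. The deposited count of variant reads and count of covering reads are not normalised, and the deposited percent is the share of variant reads. Average base quality, a deposited score in 7 tables, served only to describe sites.

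MEF1, LowK and MidK1 formed a set of tables with a lowest count of 5 and MEF2 and MidK2 one with a lowest count of 2, treated as batches: each course was set against the MEF library from its own tables. A position with reference reads alone is not listed, so shares near 100% cannot be seen. Single-base variants covered by at least 20 reads were kept, and of several alleles at a position the one with most reads, which dropped 69 second alleles.

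Reads were summed per gene over sites listed in both libraries of a pair and compared by Fisher's exact test (two-sided), with p-values adjusted by Benjamini-Hochberg over all genes of the pair. Such tests compare 2 libraries, not conditions, and cover counting error only. Coverage was scaled by the median ratio over 131 genes at 679 sites listed in all 12 libraries and tested by exact permutation of libraries. Intervals are 95% Wilson (shares) or Newcombe (differences). Scripts (Python 3.11.15, pandas 2.3.3, SciPy 1.17.1) were tested on simulated data. Site places and sequences came from the GENCODE M21 annotation and transcripts of the same build, where 30 of 30 reference bases matched. The members, lists and tests were chosen with earlier results of these data known. Named genes were Dynlt3, the 5 closest in share over 12 libraries, genes within 5 Mb, 2 lists of 20 genes and 3 escape genes with Xist. Alternatives changed the coverage minimum, the sites, the summary over sites, the MEF library and the scaling.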

Additional observations from a re-analysis of the deposited data

Results flagged for a closer look

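A 1-base deletion in the Dynlt3 3′ UTR, at 9654691 and 2 bases from the single-base site 9654693, is outside the single-base set and was flagged because the share of reads without it was above that of the MEF libraries. Reads without the deletion made up 64.6% in MidK1 at day 56 and 38.8% in LowK at day 56, against 6.90% in MEF1, and 61.3% in MidK2 at day 36, against 3.12% in MEF2. On the other days they made up 66.2 and 73.7% in MidK1 (days 35 and 52), 4.92 and 34.0% in LowK (days 35 and 52) and 23.5, 53.7 and 58.5% in MidK2 (days 18, 22 and 29). At the site beside it the reference share was 64.8% in MidK1 and 47.1% in LowK at day 56, against 9.43% in MEF1, and 61.2% in MidK2 at day 36, against 3.19% in MEF2. The deletion and the site often lie on the same reads, so the deletion is no independent measurement.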

How the results depend on the processing

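Of 360 alternative values for Dynlt3, 297 moved by less than the interval of the value or kept their side of the threshold. Of the others, 62 moved further and 1 reversed. Many of the 297 could not move, because the setting changed no site of that library or pair, so their number is no measure of stability. With at least 10 reads per site, for example, the MEF1, LowK and MidK1 shares were unchanged. The median over sites moved 14 values and left 20 the same, and a single site moved 15 and left 19 the same. The reversed value is the scaled coverage of reprogrammed minus MEF libraries, 0.0049 on the log2 scale under scaling to total coverage (exact permutation p = 0.970). Leaving out a MEF library gave -0.51 to -0.33 for it, and leaving out a day gave 0.86 to 1.12 for MidK1 minus LowK. The cause of the moved values below was not tested unless the sites used show it.

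Against the MEF library of the other set, LowK differed by 1.41, 20.7 and 33.9 points at days 35, 52 and 56, MidK1 by 61.0, 61.1 and 59.0, and MidK2 by 11.9, 35.0, 46.9 and 45.3 points at days 18, 22, 29 and 36, so that LowK at day 35 changed sign. At common sites alone the shares were 5.65% in LowK at day 35, 18.3, 41.4, 53.6 and 51.6% in MidK2, and 2.28% in MEF2, and MidK2 at day 22 minus day 18 was 23.1 points. Without the sites of the insertion run, added after seeing the data, LowK at day 35 had 5.30%, MidK2 28.2, 44.2 and 53.8% at days 18, 22 and 36, and MEF2 4.33%. Without sites in fewer than 3 libraries, also added, MidK2 had 33.5% at day 18 and 53.8% at day 29, and MEF2 10.5%. With alleles swapped at site 9655269, also added, MidK2 at day 18 had 34.6%. Keeping the other of 2 alleles with equal counts in MEF2, also added, gave 20.1 points for MidK2 at day 18 minus MEF2.

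With at least 50 reads per site LowK at day 52 had 18.8% and MidK2 at day 18 45.2%. LowK at day 52 minus MEF1 was then 12.04 points, MidK1 at day 35 minus MEF1 53.1, MidK1 minus LowK at day 52 44.1, and the LowK steps 12.5 (day 52 minus 35) and 16.5 (day 56 minus 52).

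The median over sites gave 5.13 and 20% in LowK at days 35 and 52, 59.3% in MidK1 at day 35, 20.8, 44.1 and 50% in MidK2 at days 18, 22 and 36, and 2.27% in MEF2. Its differences were 54.3 points for MidK1 at day 35 minus MEF1, 55.8 for MidK2 at day 29 minus MEF2, and 55.3 and 43.3 for MidK1 minus LowK at days 35 and 52. Its steps were 3.94 for MidK1 day 52 minus 35, 24.0 for MidK2 day 22 minus 18 and -7.58 for day 36 minus 29.

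Site 9655084 alone gave 56.7% in MidK1 at day 35, 22.5, 44.1 and 64.8% in MidK2 at days 18, 22 and 29, 8.24% in MEF1 and 3.45% in MEF2. Its differences were 48.4 points for MidK1 at day 35 minus MEF1, 61.3 and 52.4 for MidK2 at days 29 and 36 minus MEF2, and 48.3 for MidK1 minus LowK at day 35. Its steps were 6.59 for MidK1 day 52 minus 35, and 21.6, 20.7 and -8.91 for MidK2, and MidK2 at day 36 minus MidK1 at day 35 was -0.82.

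Fewer genes were tested with at least 50 reads per site (62 to 159 a pair) than with 20 (153 to 290). With at least 50 reads, calls against MEF1 were 4, 4 and 9 in MidK1 (13, 20 and 22 with 20 reads) and 0, 0 and 1 in LowK (2, 3 and 8), and against MEF2 11, 11 and 10 in MidK2 at days 22, 29 and 36 (18, 18 and 20). As a share of genes tested they were 6.45, 6.15 and 14.1% in MidK1 (8.50, 12.9 and 14.1%) and 11.5, 12.2 and 10.4% in MidK2 (9.63, 9.94 and 10.4%). In LowK against MEF1 the shares were 0, 0 and 1.52% (1.23, 1.76 and 4.91%). MidK1 against LowK gave 7, 8 and 12 (18, 21 and 21), or 6.09, 6.84 and 9.76% of genes tested (7.66, 8.61 and 8.64%). The LowK steps gave 0 and 0 (3 and 1), the MidK1 steps 2 and 0 (6 and 1), the first MidK2 steps 2 and 0 (7 and 2) and MidK2 at day 36 against MidK1 at day 35 gave 0 (6). As shares these steps were 0 and 0% in LowK (1.23 and 0.395%) and 1.79 and 0% in MidK1 (2.56 and 0.424%). In MidK2 they were 1.26 and 0% (2.46 and 0.714%), and between the courses the share was 0% (2.44%). With at least 10 reads, LowK at day 52 against MEF1 gave 5, MidK2 at day 29 against MEF2 30, LowK day 56 against 52 2, MidK1 day 56 against 52 3 and MidK2 day 22 against 18 12. In that order the shares of genes tested were 2.03, 11.2, 0.595, 0.926 and 3.29%. With 20 reads they were 1.76, 9.94, 0.395, 0.424 and 2.46%.

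Pairing MidK1 and LowK by day, added after seeing the data, left the coverage difference at 0.96 (exact permutation p = 0.25). By replicate number no pairing could be made, since each course and day is 1 library. At a median of 35 to 39 reads per site, single-site shares have wide intervals.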

Other observations

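Further from the single-base set, an insertion of 3 bases in the Dynlt3 3′ UTR (after 9655542) was listed in 11 libraries. Reads without it made up 86.0, 73.5 and 71.4% in MidK1 at days 35, 52 and 56 and 47.4 and 60.9% in LowK at days 35 and 56, against 61.9% of 21 reads in MEF1. In MidK2 they made up 40.7, 53.6, 57.6 and 59.2% at days 18, 22, 29 and 36, against 40.7% of 86 reads in MEF2. Unlike the common single-base sites, the insertion thus left a large share of reads without it in both MEF libraries. A 1-base deletion at 9655968 was absent from 75.9, 52.4 and 59.1% of reads in MidK1 at days 35, 52 and 56 and 5.13 and 20% in LowK at days 35 and 52, against 33.3% of 21 reads in MEF1. In MidK2 at day 36 it was absent from 54.3% of reads, against 16.7% of 24 reads in MEF2.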
